A study of Mus musculus with 3 samples.

Results

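The cells described here came from the Normal library of a mouse skin study and carried keratins of the inner root sheath and the early hair shaft. They were chosen by their own counts. A cell was kept if it had at least 300 detected genes and at most 20% mitochondrial counts. It was a member if it held at least 1 unique molecular identifier (UMI, a tag for 1 captured transcript) of at least 3 of the 7 genes Krt25, Krt27, Krt28, Krt71, Krt72, Krt73 and Krt35. Of 10428 kept cells of the Normal library, 761 were members, or 7.30% (exact 95% binomial interval 6.81 to 7.81). Intervals here and below cover counting error only.

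The study sequenced the 3′ ends of transcripts of single cells from the dorsal skin of C57BL/6 mice aged 7 weeks. Mice of the IMQ library received imiquimod, an agonist of Toll-like receptor 7 that produces psoriasis-like skin. Those of the IMQ+celastrol library received celastrol, a plant triterpenoid, together with imiquimod. Controls, the Normal library, received glycerin. Each condition was 1 library, so no difference has a replicate check and no p-value is given. The number of mice behind a library and the stage of their hair cycle were not stated in the sources used here.

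In a growing hair follicle, matrix cells at the base divide around the dermal papilla, and their daughters move upward into concentric layers. The inner layers become the hair shaft, and the layers around it, named Henle, Huxley and cuticle, become the inner root sheath, which moulds the shaft and is lost higher up. Krt25, Krt27 and Krt28 are type I keratins of the inner root sheath, and Krt71, Krt72 and Krt73 are type II keratins of it, with Krt72 and Krt73 known from its cuticle. Krt35 is a type I hair keratin that appears early in the shaft, before cortex keratins such as Krt31, Krt33a and Krt33b. Tchh encodes trichohyalin, a protein of the inner root sheath and the medulla that is cross-linked to keratin filaments.

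No kept cell of the other libraries met the rule. IMQ had 0 of 8008 cells, which allows a share of up to 0.0375%, and IMQ+celastrol 0 of 6422 cells, which allows 0.0467%, against 761 of 10428 in Normal. Both treated libraries were deeper, at 119831835 UMIs for IMQ and 103267738 for IMQ+celastrol, against 77880943 for Normal. With every cell thinned to 5000 UMIs the counts were 0 of 5985, 0 of 5020 and 353 of 6154 cells (5.74%) in the IMQ, IMQ+celastrol and Normal libraries. This left out 2023, 1402 and 4274 shallower cells in the same order. The hair cycle stage of the sampled patch and the treatment cannot be told apart with 1 library each. The Normal library shared 26 cell barcodes with IMQ and 15 with IMQ+celastrol, and each set held 1 member. All that follows is about the Normal library.

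The rule rested mostly on 3 genes. A UMI of Krt28 was present in 742 of the 761 members, one of Krt25 in 711 and one of Krt27 in 693. Krt71 was present in 202, Krt35 in 159, Krt73 in 74 and Krt72 in 1. The combination of Krt25, Krt27 and Krt28 with none of the other 4 genes described 388 members (51.0%). Adding Krt71 to those 3 described 99 members (13.0%), and adding Krt35 in its place described 78 (10.3%). So inner root sheath type I keratins were near universal among the members, which the rule favours, while the type II keratins and Krt35 each marked a minority.

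Summed over members and divided by their summed UMIs (CPM, depth-scaled counts on a total of 1000000), Krt25 stood at 816 CPM, Krt28 at 538, Krt71 at 393, Krt27 at 205, Krt35 at 122 and Krt73 at 103 CPM. Single cells differed far more than these sums show. The highest UMI count in 1 member was 715 for Krt25, 683 for Krt71, 320 for Krt35, 134 for Krt27, 79 for Krt28 and 61 for Krt73, while the median over members with the gene was between 2 and 9 UMIs for all 6. The 47 cells of sub-cluster 9, described below, held 3352 of the 4610 Krt71 UMIs and 4305 of the 9569 Krt25 UMIs, but 1132 of the 6317 Krt28 UMIs.

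Cells on either side of the threshold were close in some genes and further apart in others. The 508 cells with exactly 3 of the 7 genes had a median of 14108 UMIs and 963 CPM of inner root sheath keratins. The 364 cells with exactly 2 had a median of 11690 UMIs and 590 CPM, and 268 of them fell in the same cluster as most members. Msx2, a homeodomain factor of the matrix, stood at 221 CPM inside the threshold and 201 CPM outside it. Krt14 stood further apart, at 393 and 934 CPM in the same order. Depth and keratin level both differed across the threshold, and the part of depth in it was not tested. A Krt25 UMI was seen in 93.4% of members, with a median depth of 14063 UMIs. In cells that should lack the gene it was seen in 1.29% of other keratinocytes, 1.22% of fibroblast-like cells and 1.69% of T cell-like cells, with median depths of 7899.5, 4413 and 2809 UMIs, and shares of that size were read as background.

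The 5 inner root sheath keratin genes with appreciable counts lie in the keratin clusters of mouse chromosomes 11 and 15, all on the minus strand. In GRCm38 coordinates Krt25 spans chr11:99315516-99322951, Krt27 chr11:99345565-99351104 and Krt28 chr11:99364872-99374903. Krt71 spans chr15:101733949-101743109 and Krt73 chr15:101793308-101802346. Their promoters are shown because the members were also high in homeodomain factors of the Msx and Dlx families, described further on. Each sequence is the 250 bases before the RefSeq start (GRCm38.p6), 5′ to 3′ on the gene's strand, and capitals mark the homeodomain core TAATT on either strand.
Krt25, chr11:99322952-99323201: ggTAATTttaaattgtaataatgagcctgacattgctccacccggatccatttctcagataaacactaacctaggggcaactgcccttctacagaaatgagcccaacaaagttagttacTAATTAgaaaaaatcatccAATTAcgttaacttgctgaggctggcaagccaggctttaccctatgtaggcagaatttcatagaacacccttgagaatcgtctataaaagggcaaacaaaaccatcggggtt
Krt27, chr11:99351119-99351368: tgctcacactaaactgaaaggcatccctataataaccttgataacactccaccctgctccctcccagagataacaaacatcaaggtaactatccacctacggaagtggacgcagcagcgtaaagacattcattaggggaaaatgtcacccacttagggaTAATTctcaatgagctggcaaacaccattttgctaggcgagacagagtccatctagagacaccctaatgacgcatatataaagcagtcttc
Krt28, chr11:99374904-99375153: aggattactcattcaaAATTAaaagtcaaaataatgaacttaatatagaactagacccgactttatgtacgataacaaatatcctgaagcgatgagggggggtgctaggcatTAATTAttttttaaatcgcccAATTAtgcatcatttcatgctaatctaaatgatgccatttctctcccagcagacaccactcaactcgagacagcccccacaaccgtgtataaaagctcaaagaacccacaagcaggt
Krt71, chr15:101743098-101743347: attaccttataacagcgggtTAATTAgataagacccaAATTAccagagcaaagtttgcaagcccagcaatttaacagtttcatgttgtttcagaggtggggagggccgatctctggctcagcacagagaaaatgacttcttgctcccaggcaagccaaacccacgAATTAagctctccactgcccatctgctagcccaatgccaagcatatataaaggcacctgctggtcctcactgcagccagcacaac
Krt73, chr15:101802361-101802610: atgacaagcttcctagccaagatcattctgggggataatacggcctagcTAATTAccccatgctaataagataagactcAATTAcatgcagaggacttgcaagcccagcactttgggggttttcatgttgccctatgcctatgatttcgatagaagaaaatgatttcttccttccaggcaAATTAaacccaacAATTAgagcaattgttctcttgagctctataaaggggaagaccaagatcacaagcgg

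The core TAATT matched 5 times in the Krt73 window, 4 times each in those of Krt25, Krt28 and Krt71, and 1 time in that of Krt27, with the palindrome TAATTA counted on each strand. Of 32851 promoter windows of this length, 25.03% held at least 1 match and 1.38% at least 4. The GATA core GATAA on either strand matched 3 times in Krt27, 2 times in Krt73 and 1 time in each of the others, and 22.58% of windows held at least 1. The LEF and TCF core CTTTGA matched 1 time, in Krt28, and 13.83% of windows held it. The motifs were chosen after the values and the sequences had been seen, a match of this length is not a binding site, and the windows of neighbouring keratin genes share ancestry.

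The name of the group holds only in part. Clustering of the whole Normal library placed 622 of the 761 members in 1 cluster of 1009 cells that was hair matrix-like, with 7 matrix markers detected. All 36 cells of an inner root sheath-like cluster were members. A further 16 were among the 87 cells of a cluster led by shaft genes (S100a3, Krtap8-1, Krt35, Krt33a), and the remaining 87 members (11.4%) were spread over 23 other clusters with at most 17 in any. By weight of transcripts most members resembled dividing matrix cells with traces of layer keratins, and few resembled differentiated sheath.

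Inner root sheath keratins took a median of 0.0946% of a member's UMIs, with a range of 0.0141 to 14.0%. Only 41 members had 1% or more. Shaft keratins took 1% or more in 2 members, and 591 members held no shaft keratin UMI at all. The plot of both keratin shares in each cell shows a dense cloud of low values with an arm of high sheath keratin and a thin arm of high shaft keratin.

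**Figure D1:**
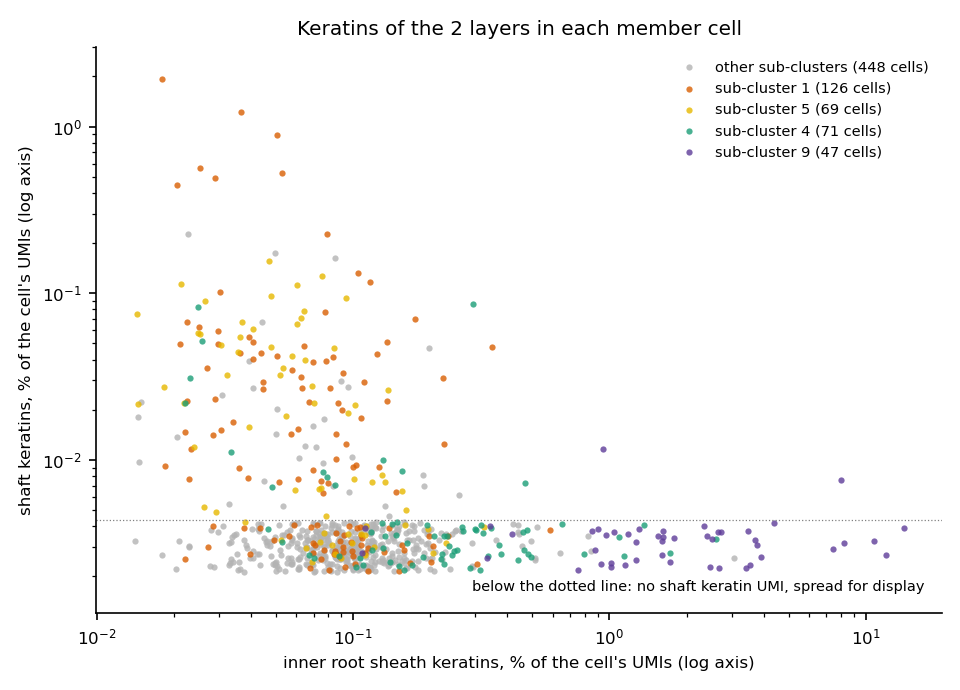
Each point is 1 of the 761 member cells. The horizontal axis gives inner root sheath keratins and the vertical axis shaft keratins, both as % of the cell's UMIs on log axes; points below the dotted line had no shaft keratin UMI and are spread for display, and colours mark sub-clusters of the members. The 47 cells of sub-cluster 9 (purple) lie to the right, and the few cells with much shaft keratin belong mostly to sub-cluster 1 (orange).

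The later cortex keratins of the shaft were nearly missing from the members, while Krt35 was not. Of all UMIs of each gene in kept cells, members held 97.3% for Krt73, 96.2% for Krt71, 92.8% for Krt25, 81.3% for Krt27, 77.5% for Krt28 and 77.2% for Tchh. For Krt35 they held 40.7%, and the non-member cells of the shaft keratin cluster held 35.8%. For the later cortex keratins they held 0.474% of Krt31 and 0.440% of Krt33a, and 0 of 245 Krt33b UMIs. Shaft cells that had moved on to those keratins were thus mostly outside the rule, which asks for several sheath keratins. Krt72 had 2 UMIs in the whole library, so a cuticle keratin of the sheath could not be followed with it.

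Members were compared with 2864 other keratinocytes of the same library, the cells of 8 clusters with markers of basal, suprabasal, outer root sheath or upper follicle keratinocytes. Left out were several clusters whose best-scoring class was also basal keratinocyte. The one of 160 cells had Ube2c, Cdk1 and Top2a among its leading genes. The one of 178 cells had Gjb2 and Vdr among them, and the others had 146, 74, 67 and 35 cells. Members had more of the sheath keratins that chose them, of the Msx and Dlx homeodomain factors, of Lef1 and Shh, and of 21 of 23 cell cycle genes than the other keratinocytes. They had less of most listed basal, suprabasal and adhesion genes, while listed signalling genes lay on both sides. Among 11730 genes with at least 50 UMIs in both groups together, 2027 were at least 2-fold higher in members (17.3%) and 2055 at least 2-fold lower (17.5%). The median log2 ratio over all these genes was 0.13. These are rules of size with no test, and since members were chosen on keratins of the cells compared, every value here is a description. Members had a median of 14063 UMIs and other keratinocytes 7899.5.

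The highest ratio was that of Krt25, with 816 CPM in members and 1.99 CPM in other keratinocytes, or 409-fold (95% interval 309 to 553). Gfra3, a receptor subunit for a neurotrophic factor, stood at 20.8 and 0.0814 CPM in the same order (256-fold, 70.0 to 2122). Krt73, Krt28, Krt71 and Krt27, which the rule used, were 158-, 138-, 115- and 103-fold higher. Shh, the Hedgehog ligand made by matrix cells, had 409 UMIs in members and 8 in other keratinocytes (107-fold, 53.8 to 250). Cldn10, a claudin of tight junctions, stood at 293 and 3.38 CPM (86.8-fold, 69.8 to 109). Pcsk2, a proprotein convertase, and Fa2h, a fatty acid hydroxylase, completed the 10 highest on few counts, with 52 and 70 UMIs in members against 1 and 2 in other keratinocytes. Of the Fa2h UMIs, 69 came from the 37 cells of sub-cluster 12, so Fa2h was not a gene of the members at large.

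The 10 lowest ratios included several genes of the cornified epidermis. Cnfn, which encodes cornifelin, had 1 UMI in members and 1872 in other keratinocytes (894-fold lower, 160 to 35325). Flg, which encodes filaggrin, had 9 and 4676 UMIs (248-fold lower, 131 to 543), and Sprr1b, a cornified envelope precursor, 3 and 1881 (299-fold lower, 102 to 1453). Flg2 had 0 UMIs in members and 946 in other keratinocytes, at least 151-fold lower against a floor of 3 counts in the group. Hrnr, Wfdc21, Gm94, Skint7, Ccl20 and Abhd12b were the other 6 of the 10 lowest, between 141- and 206-fold lower.

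Among 36 listed lineage factors of the follicle, 33 passed the count minimum, 12 were higher and 12 lower, with a median log2 ratio of -0.08. The 12 higher ones included most of the matrix homeodomain factors. Msx1 stood at 133 CPM in members and 2.08 CPM in other keratinocytes (64.3-fold, 48.6 to 86.7). Msx2 stood at 231 and 6.06 CPM (38.1-fold, 32.3 to 45.2). Dlx3, without which mice do not form hair, stood at 172 and 6.84 CPM (25.1-fold, 21.4 to 29.6), and Dlx4, Dlx1 and Dlx2 were 36.4-, 25.1- and 17.03-fold higher. These were spread across the group: 626 members held an Msx2 UMI and 627 a Dlx3 UMI, against 127 of the 2864 other keratinocytes for Msx2. Lef1, a transcription factor through which WNT signals act, was 54.7-fold higher (41.7 to 73.2), Cux1 9.57-fold, Hoxc13, a regulator of hair keratin genes, 6.70-fold, Tcf7 6.18-fold and Trps1 3.27-fold. Runx3 was 4.56-fold higher on 37 UMIs, of which 25 were in sub-cluster 11 and 11 in sub-cluster 3, described below.

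The 12 factors that were lower in members were of mixed roles. Barx2 was 25.01-fold lower, Sox9 14.9-fold, Nfatc1 8.79-fold, Klf5 4.95-fold and Bcl11b 4.69-fold. Foxq1, a factor of the hair medulla, was 3.78-fold lower, and Vdr, Cebpa and Prdm1 were also among the 12. Without sub-clusters 3, 11 and 12, Barx2, Sox9 and Nfatc1 were lower still, at 2.98, 5.28 and 1.03 CPM in the remaining members. Gata3, a factor needed for the inner root sheath in mice, did not reach the size rule, with 100 CPM in members and 152 CPM in other keratinocytes. Of its 1174 UMIs in members, 182 were in the 47 cells of sub-cluster 9, described below.

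Of 41 listed genes of WNT, Hedgehog, BMP and Notch signalling, 37 passed the minimum, 12 were higher and 9 lower, with a median log2 ratio of 0.22. Beside the ligand Shh, the Hedgehog receptor Ptch1 (2.67-fold) and the effectors Gli1 (3.12-fold) and Gli2 (2.57-fold) were higher in members. Of WNT ligands, Wnt10b was 7.22-fold higher (5.34 to 9.90) and Wnt5a 4.28-fold higher, while Wnt3 was 7.44-fold and Wnt10a 5.37-fold lower. The BMP targets Id3 (2574 CPM in members, 497 in other keratinocytes, 5.18-fold), Id1 (2.66-fold) and Id2 (2.09-fold) were higher, as was Bambi, a decoy receptor of the same family, at 123 and 9.12 CPM (13.5-fold, 11.7 to 15.6). The ligand Bmp2 was 5.65-fold and the antagonist Sostdc1 14.9-fold lower. Receptors, targets and ligands of 1 pathway therefore did not all lie on the same side.

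Cell cycle genes were mostly higher in members. Of 23 genes, all of which passed the minimum, 21 were higher and 1 was lower, with a median log2 ratio of 2.70. The proliferation marker Mki67 stood at 207 CPM in members and 28.6 CPM in other keratinocytes (7.23-fold, 6.65 to 7.88), and Top2a at 225 and 33.9 CPM. Stmn1 and Hmgb2, abundant in dividing cells, stood at 2526 and 2627 CPM in members, against 364 and 408 CPM in other keratinocytes. The lower gene was Cdkn1a, which encodes an inhibitor of the cycle, at 98.9 and 313 CPM (3.16-fold lower, 2.97 to 3.37). The other keratinocytes did not include the cluster led by cell cycle genes, so these ratios are against keratinocytes without it. With the other keratinocytes chosen by keratin share and not by cluster, Mki67 was still higher at a log2 ratio of 2.04 and Top2a at 1.54.

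Adhesion and epidermal genes lay on the other side. Of 18 desmosome, junction and cornified adhesion genes that passed, 3 were higher and 14 lower, with a median log2 ratio of -2.05. Dsg1a, a desmosomal cadherin, stood at 43.4 CPM in members and 364 CPM in other keratinocytes (8.39-fold lower, 7.68 to 9.20), and Dsp, the desmosomal plaque protein, at 172 and 906 CPM. The gap junction genes Gjb2 (3.84-fold) and Gjb6 (2.84-fold) and the cadherin Cdh3 (2.002-fold) were higher. Of 16 basal, bulge and outer root sheath genes 14 were lower and 1, Lhx2, was higher at 2.01-fold, and did not reach 2-fold without sub-clusters 3, 11 and 12, described below. Krt14 stood at 356 CPM in members and 6775 CPM in other keratinocytes (95% interval of the ratio 18.4- to 19.6-fold lower) and Krt15 at 221 and 3100 CPM (14.0-fold lower). All 12 suprabasal genes that passed were lower, with a median log2 ratio of -5.14, and Krt1 was 138-fold lower (118 to 164). Without those 3 sub-clusters the log2 ratio of Krt1 was -9.61 and that of Krtdap -8.90.

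**Figure D2:**
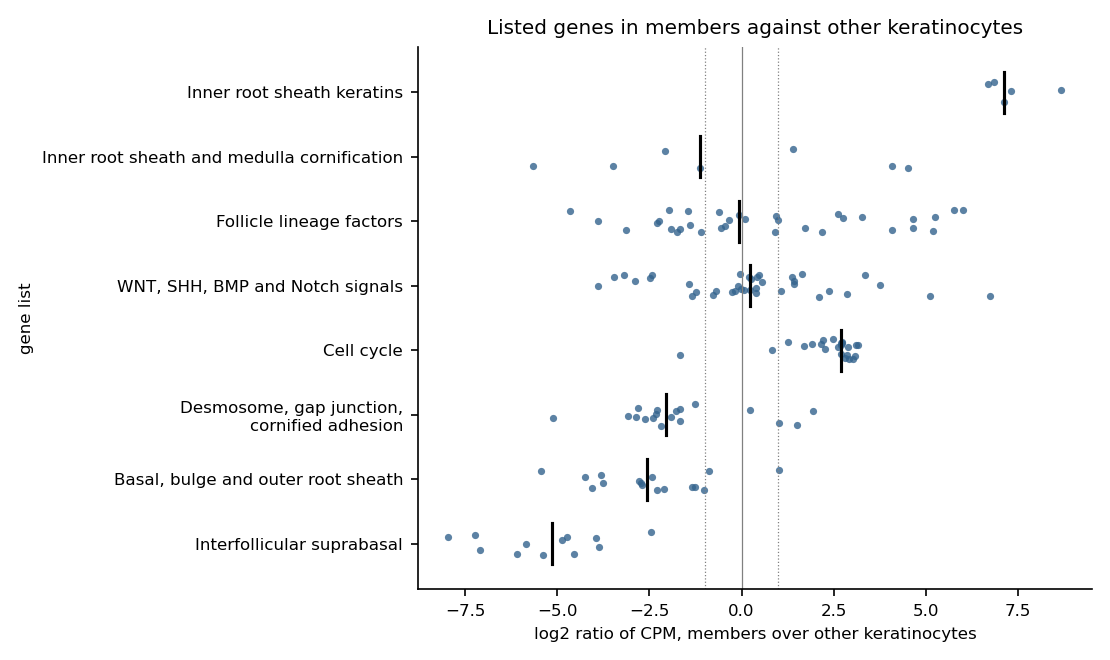
Each point is 1 listed gene with at least 50 UMIs in members and other keratinocytes together, at its log2 ratio of CPM in members over other keratinocytes; black bars are list medians and dotted lines mark a 2-fold ratio either way. The cell cycle list lies to the right of 0 except for 1 gene and the suprabasal list wholly to the left, while lineage factors and signalling genes spread to both sides.

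Markers of cells outside the epithelium were also higher in the summed members. They came from a minority of the cells. All 6 fibroblast genes and all 6 leukocyte genes reached the size rule, with median log2 ratios of 1.90 and 2.08. Sub-cluster 3 (73 cells) held Cd74, an antigen presentation gene, at 1143 CPM and was led by Cd207, Ccl4 and H2-Aa. Sub-cluster 11 (40 cells) held Col1a1 at 3500 CPM and the T cell gene Cd3e at 121 CPM, and 18 of the 23 members called as doublets were in it. Sub-cluster 12 (37 cells) was led by Fa2h, Aadac and Cyp2g1, held Krtdap at 896 CPM and Krt79 at 1036 CPM, and included 4 doublets. It was not a source of the fibroblast and leukocyte markers. Those lists summed to 484 and 8.49 CPM in it, against 1427 and 198 CPM in all members. Without the 150 cells of these 3 sub-clusters, 611 members remained. Then 1 of 5 fibroblast genes was higher and 4 were lower, and 0 of 4 leukocyte genes were higher and 2 lower. The list counts of sheath keratins, lineage factors, signals, adhesion, cell cycle and suprabasal genes in each direction were the same without them, though not every gene was: Runx3 no longer met the count minimum, and Sp6, at 25.9 CPM in the remaining members and 11.2 CPM in other keratinocytes, passed 2-fold.

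The fibroblast gene that stayed higher was Dcn, which encodes decorin. It stood at 823 CPM in members and 32.4 CPM in other keratinocytes (25.4-fold, 23.6 to 27.4). Its level was 2202 CPM in sub-cluster 10, 1156 in sub-cluster 8, 1104 in sub-cluster 1 and 77.4 in sub-cluster 9, while Col1a1 was between 9.35 and 24.8 CPM in all sub-clusters but 11. The 387 non-member cells of the matrix-like cluster held 4280 Dcn UMIs, or 1083.5 CPM. Dcn thus varied among members without the collagen genes that fibroblasts carry.

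Leiden clustering of the members alone gave 12 sub-clusters, each described by its leading genes, which are the genes it was built on. Sheath keratins peaked in sub-clusters 9 and 4, Krt35 in 1 and 5, and Shh in 10. The heat map of lineage genes by group shows that Msx2 and Dlx3 were present in all 12, with Msx2 between 136 and 367 CPM and Dlx3 between 101 and 281 CPM. The keratins, Gata3, Hoxc13, Lef1 and Shh spanned wider ranges.

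**Figure D3:**
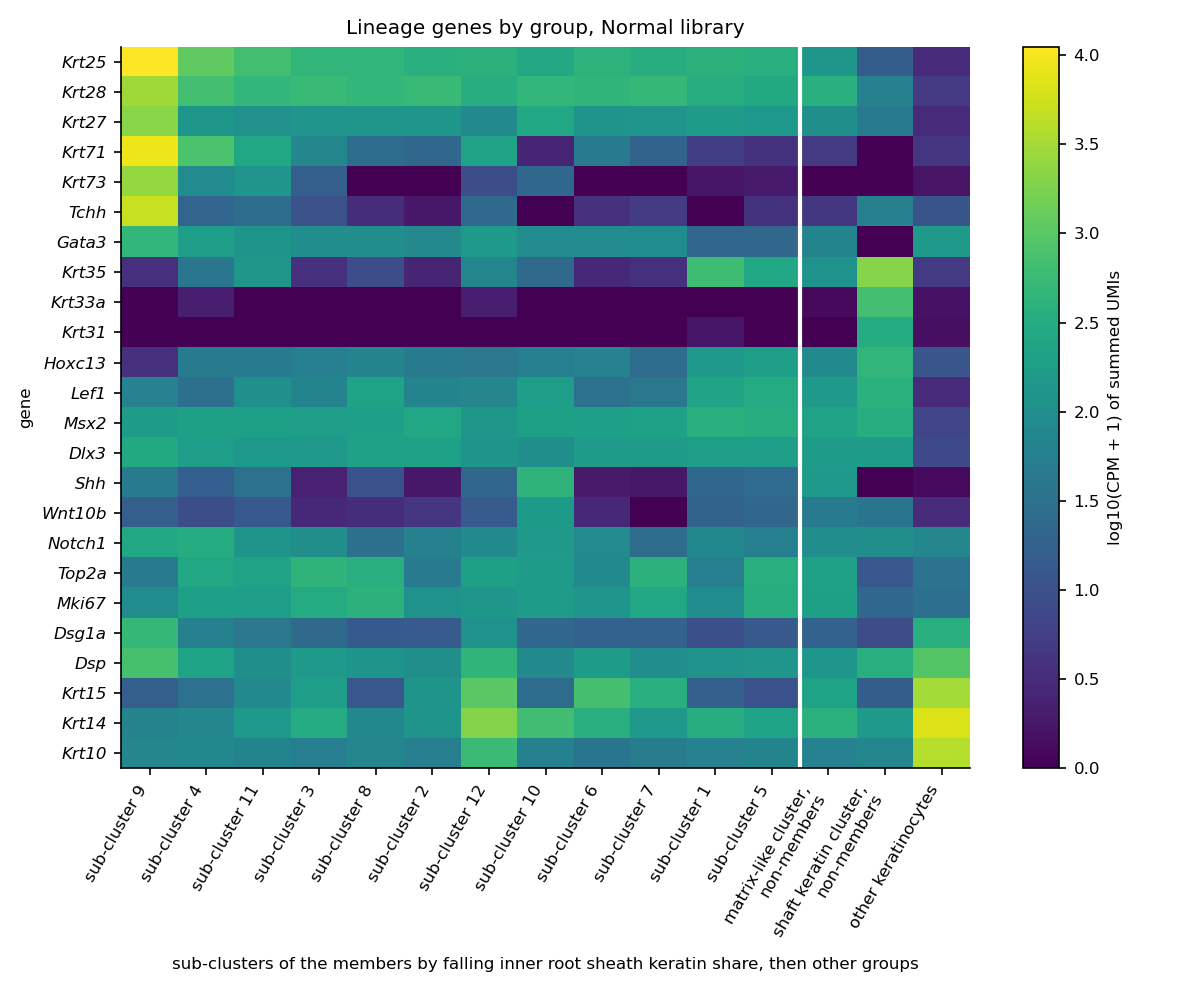
Rows are lineage genes and columns are the 12 sub-clusters of the members in falling order of sheath keratin share, then the non-member cells of the matrix-like cluster, of the shaft keratin cluster and the other keratinocytes, right of the white line. Colour gives log10 of CPM + 1 of summed UMIs. Krt71, Krt73 and Tchh are bright in sub-cluster 9, Krt35 in sub-clusters 1 and 5 and in the shaft keratin cluster, Shh in sub-cluster 10, and Krt14, Krt15 and Krt10 in the other keratinocytes.

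Sub-cluster 9 (47 cells) held the most sheath keratin. Inner root sheath keratins made up 2.74% of its summed UMIs, against 0.286% in sub-cluster 4 and 0.0782 to 0.164% in the other 10. Krt25 stood at 11111 CPM (95% interval 10781 to 11448), Krt71 at 8651, Tchh at 4999, Krt28 at 2922, Krt73 at 2573 and Krt27 at 2103 CPM. Of the 2019 Tchh UMIs of all members, 1937 were here. Gata3 was at its highest, 470 CPM, and Dlx3 too, 281 CPM, while Hoxc13 stood at 2.58 CPM with 1 of 47 cells holding a UMI and Krt35 likewise in 1 of 47. The median depth was 7856 UMIs a cell, the lowest of the 12, against 11597 to 21236 in the others.

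Sub-cluster 4 (71 cells) held intermediate sheath keratin levels and was led by Zfp750, Rhov, Notch1, E2f2 and Grhl1. Zfp750 and Grhl1 are factors of epidermal differentiation, and Notch1 is the receptor of a pathway that guides follicle layers. Notch1 stood at 320 CPM, the highest of the 12, and Hopx, a homeodomain-related factor, at 1294 CPM. A Krt71 UMI was present in 51 of 71 cells, a Krt73 UMI in 9 and a Tchh UMI in 9. In sub-cluster 2 (78 cells), led by Gm12446 and the DNA replication and repair genes Ung, E2f1 and Gins2, Krt71 was present in 17 of 78 cells, Krt73 in 0 and Tchh in 1, while Krt28 was present in 77 and Krt25 in 75.

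Set in this order, the keratins differed by unequal amounts. Krt28 differed least, 4.28-fold higher in sub-cluster 9 than in sub-cluster 4 (3.87 to 4.74) and 5.34-fold higher than in sub-cluster 2. Krt25 was 9.55-fold higher in sub-cluster 9 than in sub-cluster 4 and 29.9-fold higher than in sub-cluster 2. Krt71 was 11.1-fold and 385-fold higher in the same comparisons, and Tchh 250-fold higher than in sub-cluster 4 (155 to 429). Between sub-clusters 4 and 2, Krt71 was 34.8-fold higher in sub-cluster 4 (23.7 to 53.2), Krt25 3.12-fold higher and Gata3 2.21-fold higher. Because the rule asks for 3 of the 7 genes, a member with none of Krt71, Krt72, Krt73 and Krt35 had to hold Krt25, Krt27 and Krt28, so Krt28 in cells without Krt71 shows no order of onset. Tchh, which the rule did not use, was concentrated in sub-cluster 9.

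Sub-cluster 9 was also low in cell cycle genes. Summed over the 23 genes it had 2945 CPM, against 9986 in sub-cluster 4, 7358 to 15440 over all the other 11 and 2062 in other keratinocytes. Against sub-cluster 4 the DNA replication genes Mcm5, Mcm6 and Rrm2 were 25.3-, 21.5- and 14.5-fold lower, Cdk1 was 18.9-fold lower and Top2a 5.75-fold lower. Not every cycle gene followed, and the mitotic genes Cenpf (64.5 CPM in sub-cluster 9, 60.1 in sub-cluster 4) and Ccnb2 (43.9 and 56.6 CPM) differed by less than 2-fold. In contrast, Dsg1a was 8.50-fold higher (6.20 to 11.8), Dsc1 22.6-fold, Cldn1 4.58-fold and Dsp 3.23-fold higher. The adhesion list without Lgals7, whose counts outweigh the rest, summed to 6739 CPM in sub-cluster 9, against 1335.5 to 3212 CPM in the other 11 and 5950 CPM in other keratinocytes. The sheath keratin-rich cells were thus nearer to other keratinocytes in these sums than the other members were. Those keratinocytes did not include the cluster led by cell cycle genes.

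**Figure D4:**
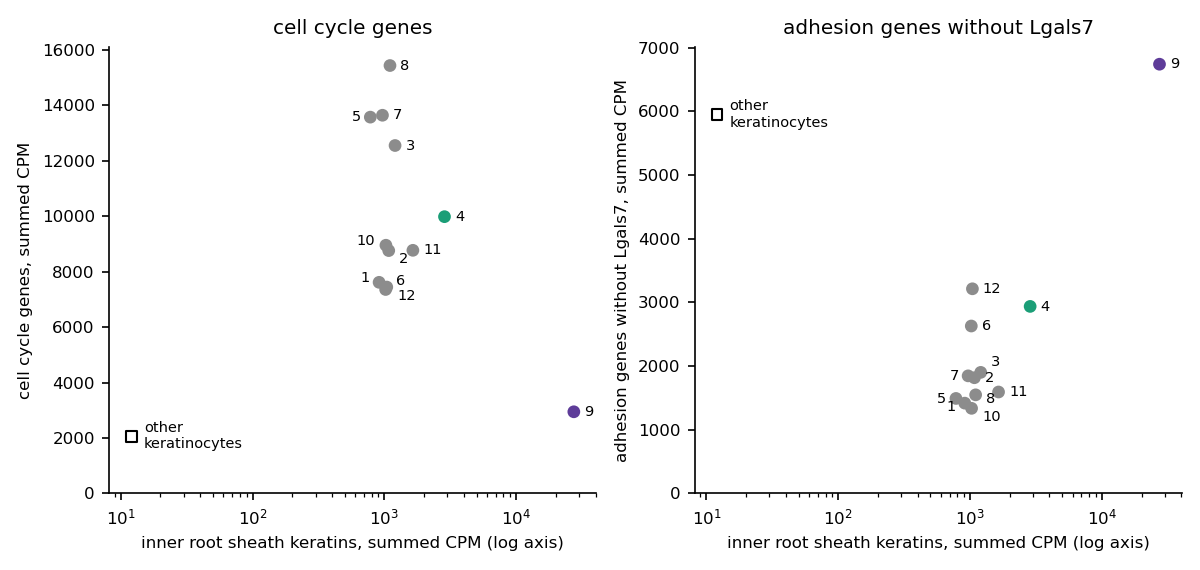
Each numbered point is a sub-cluster of the members, and the open square is the other keratinocytes, without the cluster led by cell cycle genes. The horizontal axis is the summed CPM of inner root sheath keratins (log axis) and the vertical axis the summed CPM of 23 cell cycle genes (left) or of 18 adhesion genes (right). Sub-cluster 9 (purple) stands apart at 2945 CPM of cell cycle and 6739 CPM of adhesion genes, and sub-cluster 4 (green) lies nearest to it on the keratin axis.

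The cells of sub-cluster 9 were not alike. The split that follows was chosen after their values had been seen. In 24 cells Krt73 UMIs outnumbered those of Krt71, and in 23 cells the reverse held. Their median depths were 8240 and 7225 UMIs, and 13 and 20 of them lay in the inner root sheath-like cluster of the whole library. Krt73 had a median of 30.5 UMIs a cell (range 1 to 60) in the Krt73-over-Krt71 cells and 9 (0 to 61) in the Krt71-over-Krt73 cells. Krt71 had a median of 1 UMI (0 to 31) and 45 (6 to 683) in the same order. These were the values used to split.

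Other genes followed the split. Krt25 stood at 3360 CPM in the Krt73-over-Krt71 cells and 20763 CPM in the Krt71-over-Krt73 cells (6.18-fold lower), and Krt27 at 577 and 4004 CPM (6.94-fold lower). Tchh had 30 and 1907 UMIs, in 3 of 24 and 16 of 23 cells (79.2-fold lower). Krt28 was alike, at 3192 and 2585 CPM. On the other side, the crystallin gene Cryba4 had 88 UMIs in 11 of the Krt73-over-Krt71 cells and 0 in the Krt71-over-Krt73 cells. Crym, which encodes a thyroid hormone-binding crystallin, had 89 and 3 UMIs, Cdh6, a cadherin, 67 and 3, and Fbp1, a gluconeogenic enzyme, 207 and 32. A UMI of Prr9 was seen in 19 of 24 and 8 of 23 cells. Hmgb2 and Stmn1, abundant in dividing cells, were also higher in the Krt73-over-Krt71 cells. Hmgb2 stood at 1252 and 278 CPM and Stmn1 at 987 and 220 CPM in the same order, and Cks2 had 63 and 6 UMIs. Hmgb2, Stmn1 and Cks2 were not checked within the inner root sheath-like cluster alone. Other cell cycle genes are not given for this split.

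Of 1021 genes with at least 50 UMIs in sub-cluster 9 by this split, 76 were at least 2-fold higher in the Krt73-over-Krt71 cells (7.44%) and 44 at least 2-fold lower (4.31%). Lower ones included the protease gene Ctsc (6 and 120 UMIs), Anxa1 (23 and 401), the water channel gene Aqp3 (11 and 139) and the transcription factor gene Pou3f1 (7 and 61). Gata3 did not reach the size rule, at 568 and 348 CPM. Within the inner root sheath-like cluster of the whole library alone, Cryba4, Crym, Cdh6 and Fbp1 remained at least 2-fold higher and Krt25, Krt27, Tchh, Ctsc and Anxa1 at least 2-fold lower. Krt17, with the highest ratio in all 47 cells at 318 and 2 UMIs, was carried by 6 of 24 cells, and its log2 ratio was 7.00 over all cells and 2.18 within that cluster. Krt73 is known from the cuticle layer of the sheath and trichohyalin from the Henle and Huxley layers, but no layer was assigned here. Whether the cells on either side of the split also differ in stage was not tested.

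**Figure D5:**
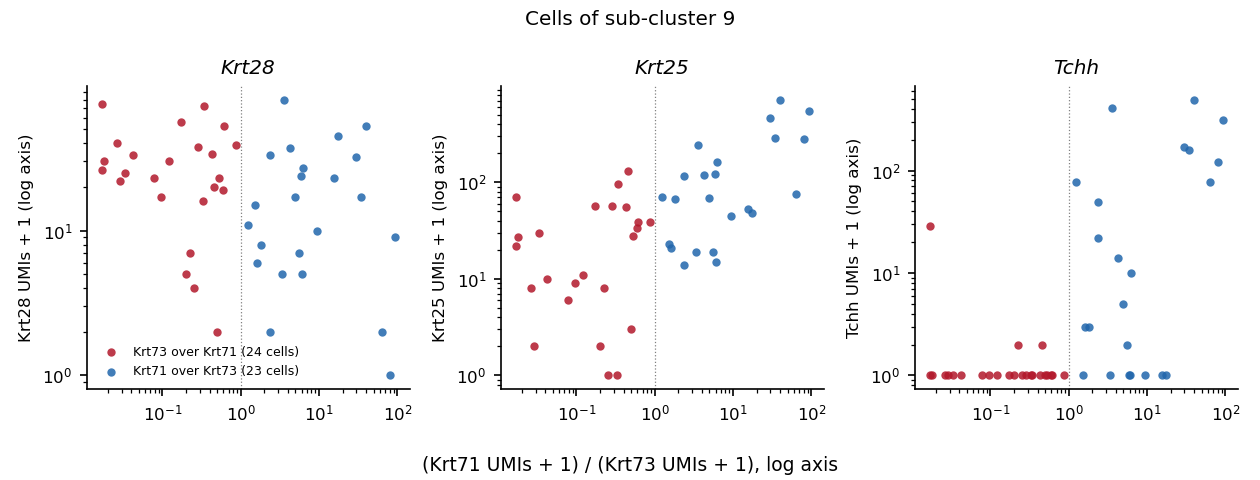
Each point is 1 of the 47 cells of sub-cluster 9. The shared horizontal axis is the ratio of Krt71 to Krt73 UMIs, each with 1 added (log axis), so Krt73-over-Krt71 cells (red, 24) lie left of the dotted line and Krt71-over-Krt73 cells (blue, 23) right of it; vertical axes give UMIs + 1 of Krt28, Krt25 and Tchh (log axes). Krt28 is similar on both sides, Krt25 increases to the right, and Tchh lies almost wholly on the right.

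On the shaft side, sub-clusters 1 (126 cells) and 5 (69 cells) held most of the Krt35 of the members. Krt35 stood at 624 CPM in sub-cluster 1 (95% interval 585 to 665) with a UMI in 70 of 126 cells, and at 268 CPM in sub-cluster 5 with a UMI in 47 of 69. In sub-cluster 9 it was at 2.58 CPM. Sub-cluster 1 was led by Krt35, the retinaldehyde dehydrogenase gene Aldh1a3, Selenbp1, Prr5l and Krtap8-1, and the leading genes of sub-cluster 5 included Defb1, AC103674.4, Phlda3 and Mt4. The shaft-related factors Hoxc13 (151 and 178 CPM in sub-clusters 1 and 5) and Lef1 (231 and 307.5 CPM) were at their highest in these, and Gata3 at its lowest (20.7 and 20.9 CPM).

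Sub-clusters 1 and 5, taken whole, had more summed cell cycle counts than sub-cluster 9, though not in every gene. The cell cycle sum was 7617 CPM in sub-cluster 1 and 13578 CPM in sub-cluster 5, against 2945 CPM in sub-cluster 9. Pcna, a replication factor, was 9.59-fold higher in sub-cluster 1 than in sub-cluster 9 (4.59 to 24.1), but Mki67 was at 92.0 CPM in sub-cluster 1 and 90.3 CPM in sub-cluster 9. Against sub-cluster 9, sub-cluster 1 had 22.7-fold less Gata3 (15.5 to 34.4), 57.8-fold less Dsg1a and 5.68-fold less Hopx. It had 58.6-fold more Hoxc13, which rests on 1 UMI in sub-cluster 9 (10.4 to 2326), and 10.4-fold more Msx1. In the non-member cells of the shaft keratin cluster, Krt35 was at 2048 CPM, Hoxc13 at 456 and Gata3 at 0 CPM, and the cell cycle sum was 2184 CPM. The 16 members of that cluster were close to these non-member cells. Their type I shaft keratins, which include Krt35, summed to 4824.5 CPM and their cell cycle genes to 1992 CPM. In the non-member cells the same sums were 3729 and 2184 CPM. Cells with much shaft keratin and few cell cycle counts thus lay on both sides of the rule.

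Sub-clusters 7 (63 cells) and 8 (48 cells) had the 2 highest cell cycle sums. Sub-cluster 7 was led by Hist1h2bj, Pole, Hist1h2bb, Ucp2 and Timp3, and sub-cluster 8 by Fst, Kit, Sapcd2, Knstrn and Cenpf. Hist1h2bj and Hist1h2bb are histone genes, and Knstrn and Cenpf act at the kinetochore in mitosis. The cell cycle sums of sub-clusters 7 and 8 were 13646 and 15440 CPM, and Ccnd2, a D-type cyclin, stood at 1458 CPM in sub-cluster 8. Sheath keratins in them (0.0966 and 0.110% of UMIs) were near the members' median. Cells rich in cell cycle transcripts were thus among the members.

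Sub-cluster 10 (43 cells) held most of the Shh of the members. Shh stood at 431 CPM (381 to 485) with a UMI in 38 of 43 cells. It was led by Shh, Lrp4, Wnt10b, Wif1 and Kremen2, the last 4 being genes of the WNT pathway or its regulators. Wnt10b stood at 160 CPM and Wif1, a secreted WNT inhibitor, at 570 CPM. Even so, members held 38.99% of all Shh UMIs of the library, and the 387 non-member cells of the matrix-like cluster held 58.7%.

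Those 387 cells lay outside the rule because they held UMIs of fewer than 3 of its genes, so their lower keratin level was fixed by the choice of members and is given as a description. Krt25 stood at 816 CPM in members and 139 CPM in them, and Krt28 at 538 and 368 CPM. Msx2 (231 CPM in members, 216 in them), Dlx3 (172 and 172) and Mki67 (207 and 198) were close, and the median depth was 14063 UMIs in members and 10212 in them. Sub-cluster 6 (66 cells), led by Tagln, Flrt2, Acta2, Pnp and Col4a2, held Krt15 at 724 CPM and Lgr5, a stem cell marker, at 40.3 CPM.

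Sorted by keratin dominance alone, 669 members (87.9%) were led by sheath keratins, with at least 3 times as many of their UMIs as of shaft keratins. Only 16 (2.10%) were led by shaft keratins and 76 (9.99%) were mixed, and 45 cells lay near these thresholds. The classes are ranges of a score and not cell types. Of the 16 shaft-led cells, 9 were in sub-cluster 1 and 4 in sub-cluster 5. The 16 cells had 204711 UMIs in all, so counts in them are small.

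Of 8628 genes, 1176 were at least 2-fold higher in sheath-led than in shaft-led cells (13.6%) and 676 at least 2-fold lower (7.83%). Sheath and shaft keratins chose the classes, so the ratios of Krt71, Krt73, Krt25 and Krt35 only describe that choice. Krt71 had 4608 UMIs in sheath-led cells and 2 in shaft-led cells (44.8-fold, 12.4 to 370), Tchh 2017 and 1 (39.2-fold), and Gata3 1166 and 1 (22.7-fold, 4.06 to 896). With classes set at 5 times in place of 3 times as many UMIs, the log2 ratio of Gata3 was 2.26, against 4.50 here, and that of Tchh 4.66. Dmkn, Slc6a6, Timp3, Krt73, Cntfr, Krt25 and Creb5 completed the 10 highest. Krt35 was 322-fold lower in sheath-led cells. Selenbp1 stood at 8.45 CPM in sheath-led cells and 1060 CPM in shaft-led cells (126-fold lower, 97.6 to 162), Dapl1 at 18.4 and 967 CPM, and Mt4, a metallothionein of differentiating epithelia, at 161 and 2105 CPM (13.1-fold lower, 11.7 to 14.5). AC103674.4, Cttnbp2, Nfe2l3, Cyfip2, Hoxb5os and Notum were the other 6 of the 10 lowest.

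Of 28 lineage factors that passed, 7 were higher and 7 lower in sheath-led cells. Lower were Hoxc13 (54.8 CPM in sheath-led cells, 361 in shaft-led cells, 6.601-fold, 5.11 to 8.42), Lef1 (98.8 and 391 CPM, 3.96-fold) and Trps1 (3.56-fold). Of 34 signalling genes 3 were higher and 10 lower, among them Notch1 (98.1 and 244 CPM, 2.49-fold lower), Jag1, the gene of a Notch ligand (107 and 318 CPM, 2.97-fold lower), Wnt3 and Bmp2. Of 23 cell cycle genes 6 were higher and 1, Cdkn1a, lower (4.05-fold). Gata3 and Hoxc13 thus lay on opposite sides, as they did between sub-clusters 9 and 1, which hold some of the same cells.

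The 669 sheath-led cells were then ordered by the share of sheath keratins in their UMIs and divided into 3 bins of 223. The median shares were 0.0613, 0.101 and 0.224%, and the high bin reached 14.0%. Krt71, which is part of that share, stood at 16.9, 32.02 and 1473 CPM in the low, middle and high bin, so its values restate the ordering. Tchh, which is not, stood at 5.98, 4.61 and 658 CPM. Gata3 stood at 71.5, 82.5 and 195 CPM, Hopx at 451, 538 and 907, Notch1 at 66.3, 82.2 and 158, and Zfp750 at 13.0, 18.5 and 62.6 CPM. In the other direction ran Krt15 (346, 212 and 117 CPM), Krt14 (477, 336 and 224) and Krt17 (1072, 560 and 487). Most of the difference lay between the middle and the high bin, except for Krt15, Krt14 and Krt17.

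Between the high and the low bin, 110 of 8403 genes were at least 2-fold higher (1.31%) and 196 at least 2-fold lower (2.33%). Of 22 cell cycle genes that passed, 0 were higher and 0 lower, and Mki67 stood at 206, 215 and 212 CPM in the 3 bins. Of 15 adhesion genes, 3 were higher (Dsc1, Dsg1a and Cldn1), and of 33 signalling genes 3 were higher, namely Notch1, Notch2 and Notch3 (2.39-, 2.41- and 3.17-fold). Of 15 basal, bulge and outer root sheath genes 8 were lower. Msx2, Dlx3, Lef1 and Hoxc13 differed by less than 2-fold.

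Much of this rested on 1 sub-cluster. The high bin held 45 of the 47 cells of sub-cluster 9. Without sub-cluster 9, 41 genes were higher and 175 lower, Krt71 kept a log2 ratio of 4.61, and Tchh had 1.11 in place of 6.78. Without sub-clusters 3, 11 and 12, 149 genes were higher and 103 lower, 6 of 15 adhesion genes were higher, and no fibroblast gene was lower, where 4 of 5 were lower with them. Of basal, bulge and outer root sheath genes, 4 of 13 were then lower and 1 higher, and without sub-cluster 9 alone 5 of 14 were lower. Of signalling genes, 1 of 32 was higher without sub-cluster 9.

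Across 15 groups of cells, the 12 sub-clusters and the 3 named keratinocyte classes, the genes outside the rule whose levels ran most like the share of sheath keratins were Mrps33 (Pearson's r = 0.97), Mrpl3 (0.94), Ctps (0.93), Dlx3 (0.93), Ddx10 (0.93), Mrps25 (0.92), Cdc14a (0.92), Spats2 (0.92), Neo1 (0.92) and Spire1 (0.92). Mrps33, Mrpl3 and Mrps25 encode proteins of the mitochondrial ribosome, and Ctps an enzyme of pyrimidine nucleotide synthesis. The 15 points share 1 library, and the sub-clusters were drawn from the same cells, so the values are descriptions and most of the range lies between members and the other classes. Krt74 and Krt85, keratins of the sheath and the shaft, were not analysed here.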

How the data were processed

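Single-cell RNA-seq was made from mouse dorsal skin, with 1 library in each of 3 conditions. The deposited values are raw UMI counts, 1 for each gene in each cell. The headers of the deposited count files give Cell Ranger and its version 4.0.0 as the software used by the authors. The submitters' processing notes name the builds mm10 and GRCm38. Alignment options are not given in the sources used here. All 31053 genes in the files were read.

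The members and gene lists were chosen with earlier results of these data known. Cells with at least 300 genes and at most 20% mitochondrial UMIs were kept. Doublets were called with Scrublet in scanpy 1.11.5 and left in, with their number given. Normal cells were clustered (2000 variable genes after scaling to 10000, 30 principal components, 15 neighbours, Leiden resolution 1, leidenalg 0.10.2) into 38 clusters, of which 11 stayed unnamed. Members were clustered again in the same way. Clusters were named from markers, but the numerical naming rule, and the choice of 8 clusters as other keratinocytes, were set after the clusters had been seen.

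UMIs were summed over cells and scaled to CPM. Poisson intervals (95%) were given for levels, exact conditional binomial intervals for ratios and Clopper-Pearson intervals for shares. They cover counting error only. A gene was called higher or lower at a 2-fold ratio among genes with at least 50 UMIs in both groups together. The floor for a count of 0 was 3 counts over the group. No test was run. The calculation was tested on simulated data.

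Genes named were those of the rule, listed genes that passed the size rule or define a layer, the 10 highest and 10 lowest ratios for members and for keratin-led classes, the 5 leading genes of each sub-cluster, and the 10 most like the sheath keratin share on a log2 scale of CPM with 20 added. Genes named from the split of sub-cluster 9 were chosen after their values were seen. Some genes that these rules name are not reported here. Versions were Python 3.11.15, numpy 2.4.6, scipy 1.17.1 and pandas 2.3.3. Alternatives changed the rule, the doublets, the mitochondrial limit, the comparison cells, the scaling, the thresholds, the bins and the resolution.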

Additional observations from a re-analysis of the deposited data

How the results depend on the processing

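No paired analysis was possible because each condition was 1 library. The number of members was 253 when 4 of the 7 genes were asked for and 454 when 2 UMIs of a gene were, against 761. It was 1125 with 2 genes, 738 without doublets and 756 with at most 10% mitochondrial UMIs. At 4-fold, 583 genes were higher and 1068 lower in members than in other keratinocytes. Of 560 log2 ratios recomputed, 398 moved by less than their counting interval. These included 51 at a minimum of 20 UMIs and 51 at 4-fold, settings that cannot change a ratio. Of the rest, 158 moved by more and 4, all past 2-fold in the values reported, changed sign. Those were Cd74, at -0.94 with other keratinocytes chosen by keratin share and -0.47 without sub-clusters 3, 11 and 12, Col1a1, at -2.17 without those sub-clusters, and Ptn, at -0.99 when the split of sub-cluster 9 was confined to the inner root sheath-like cluster. That split then gave 29 genes higher. Between the bins of sheath keratin share, 103 genes were lower without the 3 sub-clusters and 41 higher without sub-cluster 9. Sub-clusters numbered 8 at resolution 0.5, against 12. The alternatives without sub-clusters and the split itself were chosen after seeing the data; where a value changed, the cause was not tested unless the cells left out are named. Counts in the 16 shaft-led cells and the 47 cells of sub-cluster 9 are small, and with 1 library no difference can be set against the spread between animals.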

Other observations

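In the treated libraries single sheath keratin transcripts were seen without the combination that made a member. Krt27 had 112 UMIs in 70 cells of the IMQ library (0.874%) and 56 UMIs in 46 cells of the IMQ+celastrol library (0.716%), while Krt25 had 6 and 2 UMIs. Tchh was seen in 470 of 8008 IMQ cells (5.87%) and 664 of 6422 IMQ+celastrol cells (10.3%). In the Normal library 59 of the 761 members held a Tchh UMI. The share of cells with Tchh was thus no lower in the IMQ+celastrol library than among members. The first share covers all kept cells of a library and the second a chosen group, so they are not like for like. Of the 2019 Tchh UMIs of members, 1937 were in sub-cluster 9, and Tchh levels in the treated libraries are not given here. Shh had 0 UMIs in both treated libraries. Of the cells with Krt27, 61 under IMQ and 42 under IMQ+celastrol were keratin-rich cells, whose median depths were 37785 and 27546 UMIs. Members, in the Normal library, had a median depth of 14063 UMIs, and 711 of 761 held Krt25.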
